A study of Mus musculus with 4 samples.

Results

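The small leucine-rich proteoglycans were followed in primary mouse embryonic fibroblasts after siRNA knockdown of Xpo5, the gene of exportin-5, which carries microRNA precursors out of the nucleus. The family was taken as 10 genes named in the array's own annotation: decorin (Dcn), biglycan (Bgn), asporin (Aspn), fibromodulin (Fmod), lumican (Lum), prolargin (Prelp), keratocan (Kera), osteomodulin (Omd), osteoglycin (Ogn) and podocan (Podn). Every non-control probe carrying one of these names was used, which gave 13 of the 41174 non-control probes. Of these, 12 were among the 25626 probes kept for testing, for which 1 or both siRNA groups had to be well above background on each of their arrays. All 10 genes kept at least 1 probe.

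The cells were wild type primary mouse embryonic fibroblasts of strain C57BL/6, with no genetic alteration in either group. One group received a negative control siRNA and the other an siRNA against exportin-5, each at 60 nM, with 2 samples a group and 1 array a sample. In both groups the first transfection lasted 12 h, then came 48 h in 0.2% fetal calf serum, and then 24 h in 20% serum together with a second transfection, so that every value below was measured after serum starvation and refeeding. The labels do not say whether the samples came from different embryos, nor whether the siRNA was a single duplex or a pool, so the p-values speak only of the spread among these 4 arrays.

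Small leucine-rich proteoglycans are secreted proteins built around leucine-rich repeats, and many carry chondroitin, dermatan or keratan sulfate chains. They bind fibrillar collagens and govern how fibrils assemble, widen and pack, and several of them also bind growth factors of the TGF-beta family or cell surface receptors. Class I holds Dcn, Bgn and Aspn, of which Dcn and Bgn carry chondroitin or dermatan sulfate. Class II (Fmod, Lum, Prelp, Kera, Omd) includes the keratan sulfate carriers, Ogn belongs to class III and Podn to class V. Several of the genes lie side by side. In the RefSeq annotation of GRCm38, Prelp lies between Optc and Fmod on chromosome 1, Dcn, Lum and Kera follow each other on chromosome 10 with Epyc next to Kera, and Aspn, Omd and Ogn follow Ecm2 on chromosome 13.

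The probes that carry the largest differences read 60 bases of the transcript, of which the first 30, 5′ to 3′ in the sense of the transcript, are given so that the measured piece can be found again. They belong to Prelp, which has 2 probes far apart in its transcript, and to Fmod and Omd. The Prelp probe A_51_P439846 is dim and passed the filter only through the Xpo5 siRNA arrays.
Prelp A_52_P486260: ctgtacatcttatctattctccaaaagacc
Prelp A_51_P439846: ttacctttacttgcagaacaacttcatcac
Fmod A_51_P207622: ggcaagcgtggttttcaaaacatgagaaag
Omd A_51_P342926: taaagatcagaactgcgtttaagatgttgg
By the array's annotation on mm9, the first Prelp probe lies at chr1:135806934-135806993 on the minus strand, 3489 bases into the transcript, and the second at chr1:135811621-135811680, 465 bases into it. The Fmod probe lies at chr1:135943998-135944057 on the plus strand, at base 2002 of the transcript, and the Omd probe at chr13:49687847-49687906 on the plus strand, at base 1619. Whether these bases are coding or untranslated was not examined here.

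The promoters of these 3 genes are shown because these genes had the largest differences of the family. RefSeq promoter entries on GRCm38.p6 were found for 8 of the 10 genes, all but Dcn and Lum, and the 250 bases before the start are given 5′ to 3′ on the gene's strand. Capitals mark matches, on either strand, to CAGAC, the letters of a Smad-binding element.
Fmod, chr1:134037004-134037253, plus strand: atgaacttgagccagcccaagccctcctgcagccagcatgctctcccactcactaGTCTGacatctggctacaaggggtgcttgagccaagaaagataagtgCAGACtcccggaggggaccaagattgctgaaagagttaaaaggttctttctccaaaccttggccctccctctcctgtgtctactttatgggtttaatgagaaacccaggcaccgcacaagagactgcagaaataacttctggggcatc
Prelp, chr1:133921402-133921651, minus strand: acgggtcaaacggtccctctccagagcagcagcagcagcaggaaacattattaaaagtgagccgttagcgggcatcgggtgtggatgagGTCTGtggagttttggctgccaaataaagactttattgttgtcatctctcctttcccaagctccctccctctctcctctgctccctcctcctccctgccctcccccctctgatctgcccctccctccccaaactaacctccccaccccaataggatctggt
Omd, chr13:49582212-49582461, plus strand: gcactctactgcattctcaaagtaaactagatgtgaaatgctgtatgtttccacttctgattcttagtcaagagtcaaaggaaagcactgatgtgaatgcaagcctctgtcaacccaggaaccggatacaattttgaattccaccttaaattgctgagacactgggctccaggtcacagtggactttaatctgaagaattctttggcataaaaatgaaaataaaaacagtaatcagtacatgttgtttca
Fmod held 2 matches to CAGAC, Prelp 1 and Omd 0, and 42.2% of 32851 RefSeq promoter windows of the same length hold at least 1. None of the 3 held the core promoter letters TATAAA (12.4% of windows), the AP-1 letters TGANTCA (6.75%) or the Sp1 letters GGGCGG (32.7%), so that no 2 kinds of motif overlapped. These matches describe the letters only. The members with such letters elsewhere were Aspn and Ogn, each with 2 matches to TATAAA, and Bgn and Podn, with 3 and 2 matches to GGGCGG, the latter at 1 of its starts.

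Signals are log2 values from which the array's 75th percentile was subtracted, so that 0 is the level of that percentile, and differences are Xpo5 siRNA minus control siRNA. Since probes differ in how brightly they bind, no probe's level is set against another's. On all 4 arrays, 62.4% to 65.0% of non-control spots were well above background and none was saturated. The brightest Xpo5 probe stood at 1.31 and 1.26 in control replicates 1 and 2 and at -1.95 and -1.93 in Xpo5 siRNA replicates 1 and 2, a difference of -3.23 ± 0.14 (SE, n = 2 per group) that left 10.7% of the control signal. The other 2 kept Xpo5 probes differed by -3.08 ± 0.21 and -1.34 ± 0.45. Its limma adjusted p was 0.0653 over all kept probes and 0.0106 with 1 probe per official symbol. The 10 fibroblast markers (among them Col1a1, Vim and Pdgfra) were well above background on every array.

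No member passed limma at an adjusted p of 0.05, nor did any of the 25626 kept probes (0%), among which 2783, or 10.9%, had an unadjusted p under 0.05. The differences of the family's probes were nevertheless mostly above 0. Since Bgn and Prelp have 2 kept probes each, the counts that follow are of probes, not genes. Of the 12 kept probes 10 were higher with Xpo5 siRNA and 2 lower, with a median difference of 0.30 against 0.01 over all kept probes, of which 51.8% were higher. By replicate number the median was 0.56 in replicate 1 and 0.24 in replicate 2, and by slide, where control and Xpo5 siRNA arrays of unlike replicate number lay together, it was 0.35 and 0.30. In both replicates 9 of the 12 probes were higher (background 35.9%) and 0 lower (background 33.7%), and with 1 probe per gene 7 of 10 were higher. The lower of the Xpo5 siRNA arrays stood above the higher of the control arrays for 6 of the 12 probes (background 21.5%), or 4 of 10 with 1 probe per gene, and the reverse held for 0 (background 21.7%). A dim Prelp probe counted in each of these passed the filter only through the Xpo5 siRNA arrays, so that it had to be high there. Over the 10 probes well above background on all 4 arrays, 9 were higher (51.2% of 24350 such probes), 8 were higher in both replicates (35.4%) and 5 did not overlap (21.0%), with a median of 0.30.

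The size of that shift depended on 1 array and on the processing, and whether it exceeded the background depended on the processing. The median was 0.56 without Xpo5 siRNA replicate 2, beside 0 over all probes of that fit. With normexp background correction repaired for spots of uneven local background it was 0.18 with 11 of 12 higher. Over all probes of that fit the median was 0.03, with 56.5% higher. Without the repair the family's median was 0.32 with 7 of 12 higher, beside 0.41 and 59.7% over all kept probes. The family's probes then did not exceed the background. In that fit only 14 of 25626 kept probes had an unadjusted limma p under 0.05, against 2783 with the processed signal. Scaling each array to its median in place of its 75th percentile lowered all differences by about the same amount: the median of the family's probes was then 0.20 with 9 of 12 higher, beside -0.09 and 37.5% higher over all kept probes. In these bulk samples a change in the number of cells of a type cannot be told apart from a change in RNA per cell.

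**Figure D1:**
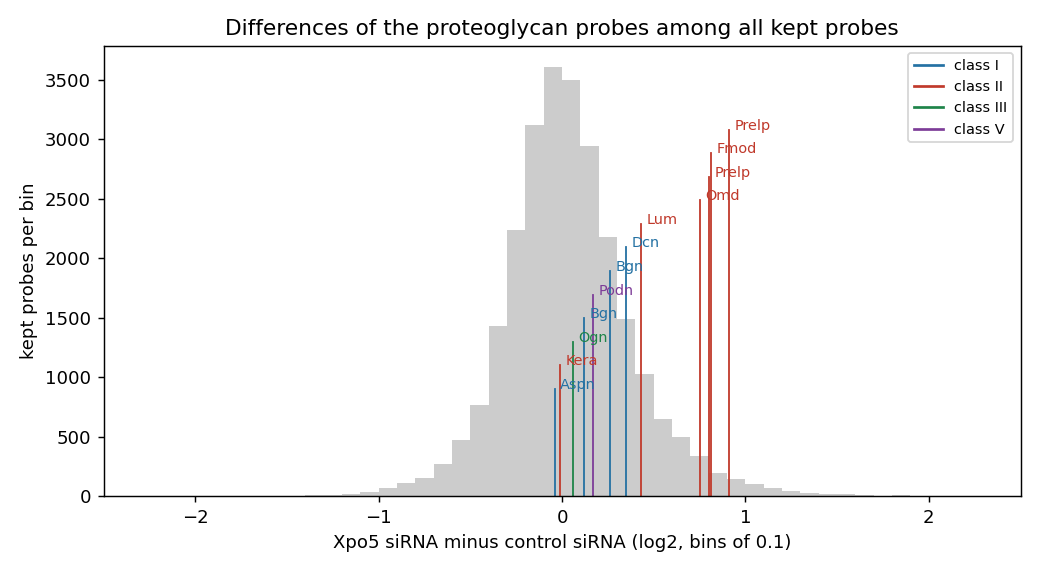
Number of kept probes (vertical axis) by their difference between Xpo5 and control siRNA (horizontal axis, log2, in bins of 0.1), with a labelled line for each of the 12 member probes coloured by class; line heights only separate the labels. The bulk of probes lies around 0.01, and 4 class II lines, for Prelp, Fmod and Omd, stand at 0.75 to 0.91. The Prelp line with the smaller difference is a dim probe that passed the filter only through the Xpo5 siRNA arrays.

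Within the family the differences were uneven between classes, which were not tested against each other. With 1 probe per gene, the 5 class II genes had a median difference of 0.75 with 4 of 5 higher, and the 3 class I genes a median of 0.26 with 2 of 3 higher. All 3 members with an unadjusted limma p under 0.05 were higher and of class II, beside 6.27% of kept probes higher and 4.59% lower at that p.

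Prelp, which anchors basement membranes to connective tissue by binding collagen and heparan sulfate, had the largest difference of the family. Its bright probe A_52_P486260 stood at 1.05 and 0.78 in control replicates 1 and 2 and at 1.88 and 1.78 with Xpo5 siRNA. Both Xpo5 siRNA values lay above both control values, by more than the gap between replicates of either group. The difference was 0.91 ± 0.16 (SE), with a 95% interval of 0.48 to 1.35, or 1.88-fold (limma unadjusted p = 0.00329, adjusted p = 0.318). It was 1.78-fold in replicate 1 and 2.00-fold in replicate 2, and 1.71% of kept probes had a larger difference. The second probe, A_51_P439846, read -6.40 and -4.90 in control and -4.89 and -4.81 with Xpo5 siRNA. Control replicate 1 was not well above background there, so only 1 control array measured it. Its difference of 0.80 ± 0.51 had an interval of -0.55 to 2.15 (limma adjusted p = 0.623), and it was 0.16 with repaired normexp, 0.05 without control siRNA replicate 1 and 1.55 without control siRNA replicate 2. This probe was kept only because both Xpo5 siRNA arrays were above background, so its sign adds nothing to that of the bright probe.

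Fmod, the fibromodulin gene, whose protein binds collagen I and limits early fibril growth, lies next to Prelp and had the next largest difference. It read 0.31 and 0.67 in control replicates 1 and 2 and 1.10 and 1.49 with Xpo5 siRNA. Replicate 2 was the higher of each pair, and the groups did not overlap. The difference was 0.81 ± 0.22 (SE), 95% interval 0.23 to 1.39, or 1.75-fold (limma unadjusted p = 0.0169, adjusted p = 0.365). It was 1.74-fold and 1.77-fold in the replicates, but 0.43 and 1.19 on the log2 scale within the slides, where the gap between replicate numbers enters the difference.

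Omd, the gene of osteomodulin, a keratan sulfate proteoglycan best known from bone, read -3.12 and -3.60 in control and -2.46 and -2.77 with Xpo5 siRNA. Here replicate 1 was the higher in both groups, and again the groups did not overlap. The difference was 0.75 ± 0.23 (SE), 95% interval 0.14 to 1.36, or 1.68-fold (limma unadjusted p = 0.0255, adjusted p = 0.395), at 1.59-fold and 1.78-fold in the replicates. The probe is dim, and with repaired normexp its difference was 0.36.

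Lum, whose protein regulates the spacing of collagen fibrils and is abundant in the corneal stroma, read 2.15 in both control arrays and 2.76 and 2.40 with Xpo5 siRNA. Both Xpo5 siRNA values were above the control values, with replicate 1 the farther. The difference was 0.43 ± 0.18 (SE), 95% interval -0.04 to 0.91, or 1.35-fold (limma unadjusted p = 0.0666, adjusted p = 0.494). Kera, a keratan sulfate proteoglycan of the cornea, lies next to Lum and gave no direction. It read -5.21 and -5.46 in control and -4.50 and -6.19 with Xpo5 siRNA, the last not well above background. The difference was -0.01 ± 0.58 (SE), with an interval of -1.52 to 1.51 that covers the differences of all other members. Its sign turned to 0.84 without Xpo5 siRNA replicate 2.

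**Figure D2:**
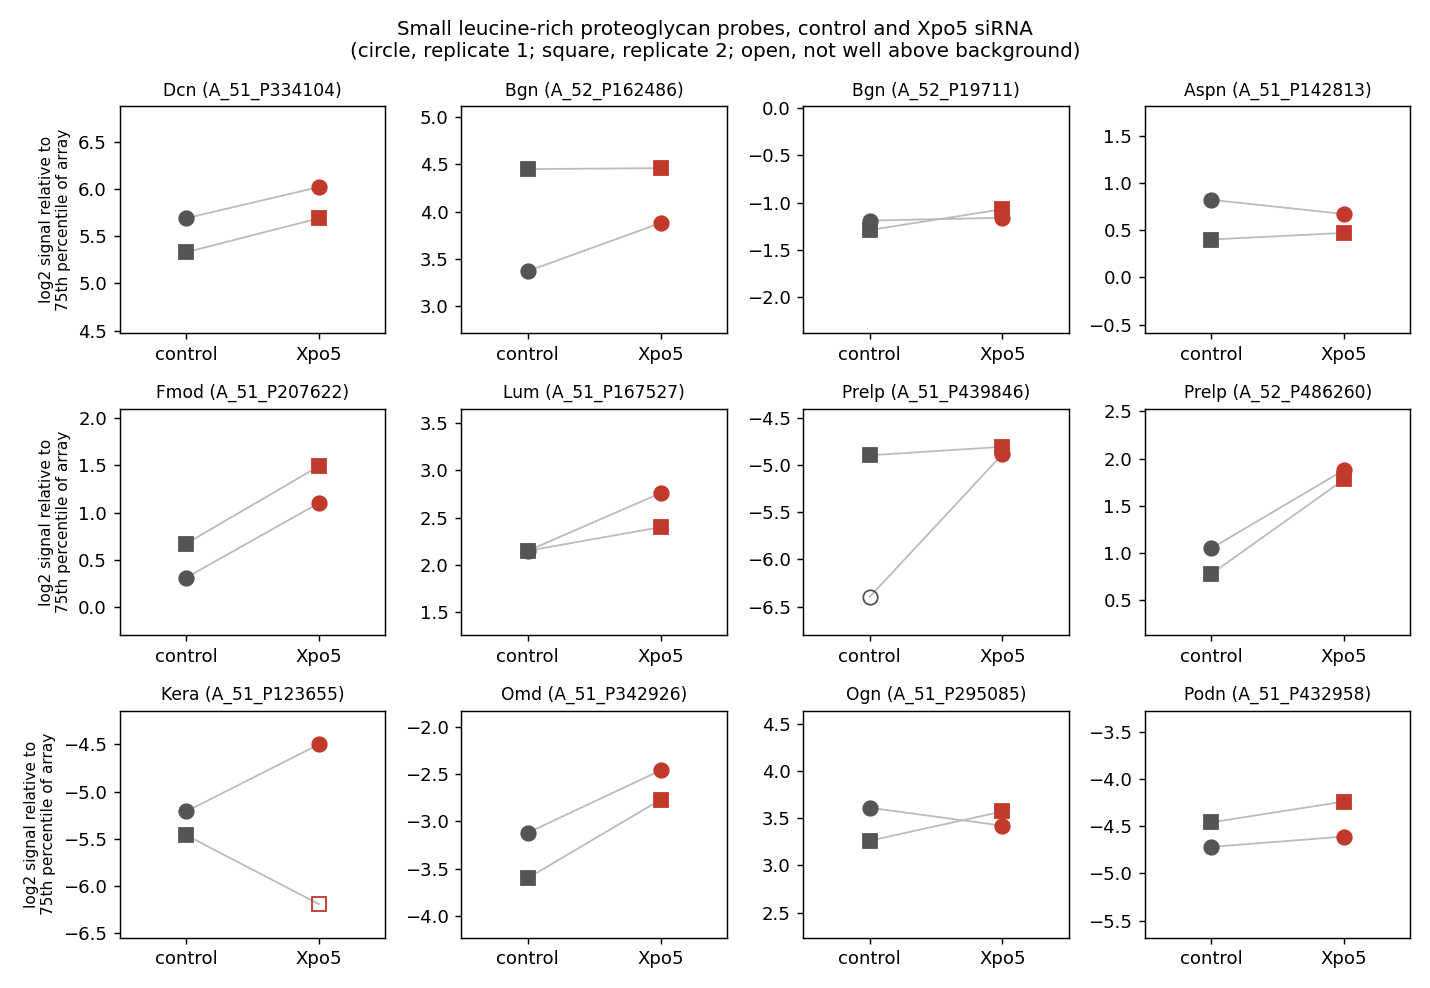
Signal of each of the 12 kept probes on each array (vertical axes, log2 relative to the array's 75th percentile, each panel centred on its own values with a common span) by siRNA (horizontal axis), with lines joining arrays of the same replicate number. Both Xpo5 siRNA points lie above both control points for Fmod, Omd, Lum, the Bgn probe A_52_P19711 and both Prelp probes. Of these, the Prelp probe A_51_P439846 passed the filter only through the Xpo5 siRNA arrays. The replicates moved in opposite directions for Aspn, Ogn and Kera.

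Among the class I genes, Dcn encodes decorin, the dermatan sulfate proteoglycan that decorates collagen I fibrils and binds TGF-beta. It read 5.69 and 5.33 in control and 6.02 and 5.69 with Xpo5 siRNA. Each replicate moved up by a similar amount, 1.26-fold and 1.28-fold, but the groups overlapped, since the lower Xpo5 siRNA array met the higher control array. The difference was 0.35 ± 0.21 (SE), 95% interval -0.21 to 0.90 (limma unadjusted p = 0.168, adjusted p = 0.609), and within the slides it was 0.70 and -0.01. The other Dcn probe, A_52_P252726, was well above background on 1 of 4 arrays and was not tested.

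Bgn, on chromosome X, encodes biglycan, which carries chondroitin or dermatan sulfate chains and also acts as a ligand of Toll-like receptors. Its bright probe A_52_P162486 read 3.37 and 4.45 in control and 3.88 and 4.46 with Xpo5 siRNA. The control replicates differed from each other by 1.08, more than either siRNA pair. The difference was 0.26 ± 0.43 (SE), 95% interval -0.86 to 1.38 (limma adjusted p = 0.846), at 1.42-fold in replicate 1 and 1.01-fold in replicate 2. It was -0.28 without control siRNA replicate 1 and -0.03 without Xpo5 siRNA replicate 2. The second probe, A_52_P19711, designed on a cDNA record, read -1.19 and -1.29 in control and -1.16 and -1.07 with Xpo5 siRNA, a difference of 0.12 ± 0.14. It did not show the spread between replicates of the bright probe.

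Aspn, the asporin gene, whose protein binds collagen and TGF-beta, was the member with the lowest difference. It read 0.82 and 0.40 in control and 0.67 and 0.47 with Xpo5 siRNA, and the control values lay on either side of the others. The difference was -0.04 ± 0.21 (SE), with an interval of -0.58 to 0.50 (limma adjusted p = 0.956), and it was 0.17 without control siRNA replicate 1 and 0.06 without Xpo5 siRNA replicate 2.

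Ogn, the gene of osteoglycin (mimecan), read 3.61 and 3.26 in control and 3.42 and 3.57 with Xpo5 siRNA. The replicates moved in opposite directions, and the difference was 0.06 ± 0.19 (SE), 95% interval -0.43 to 0.55 (limma adjusted p = 0.917). Its sign turned under median scaling, to -0.04. Podn, whose protein podocan binds collagen and is known from smooth muscle, read -4.72 and -4.46 in control and -4.61 and -4.24 with Xpo5 siRNA. Each replicate was slightly higher, 1.08-fold and 1.17-fold, and the difference was 0.17 ± 0.20 (SE), 95% interval -0.36 to 0.69 (limma adjusted p = 0.787). The Podn probe spans 2071 bases of the genome, so it reads a spliced transcript. Aspn, Omd and Ogn lie side by side, and of these only the Omd interval lay clear of 0. The intervals of Aspn and Ogn overlap it, and the difference between these genes was not tested.

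**Figure D3:**
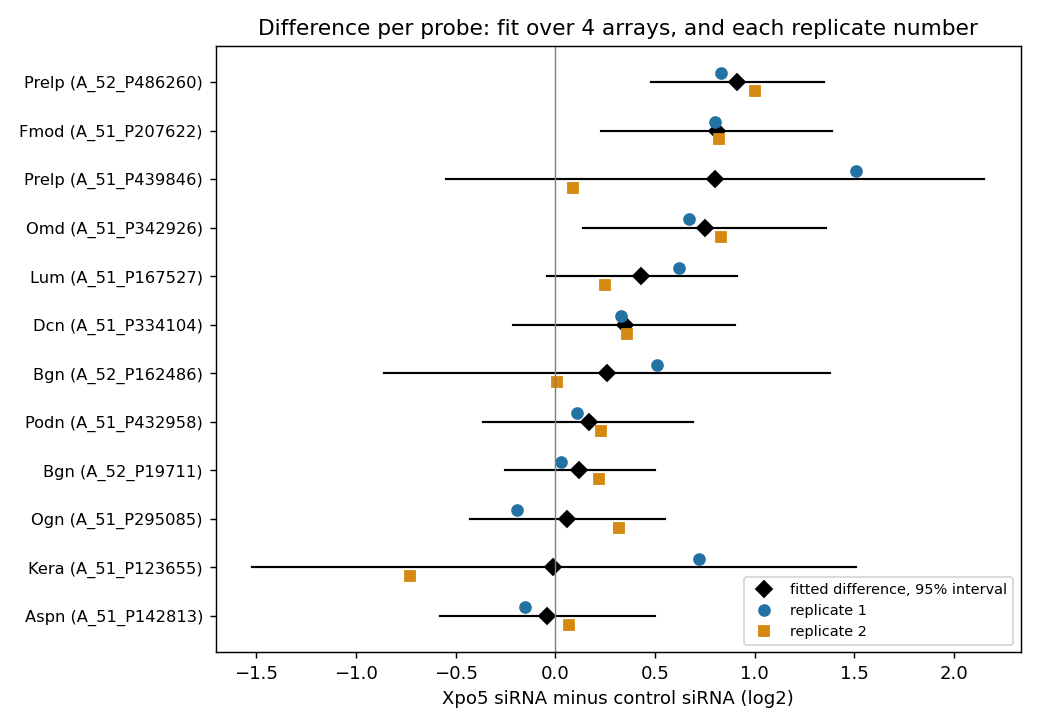
Difference between Xpo5 and control siRNA for each kept member probe (horizontal axis, log2), ordered by size: diamonds and bars give the limma estimate and its 95% interval over 4 arrays, circles and squares the difference within replicates 1 and 2. The intervals of Prelp (A_52_P486260), Fmod and Omd lie above 0, and those of the other 9 probes include 0.

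The replicate numbers were also fitted as a block, reading them as the 2 independent experiments of the series text, although the labels do not tie a number to an experiment outright. With the block 5 members had an unadjusted limma p under 0.05 (background 13.4% higher), the 3 above with Lum and Dcn, whose adjusted p in limma was 0.191 and 0.183. Over all kept probes 0 members still passed, among 4 probes that did (0.0156%), and the adjusted p of Prelp (A_52_P486260), Fmod and Omd was 0.102 each. With the block and only the brightest probe of each official symbol, 3 of 10 members rose: Prelp at an adjusted p of 0.0437, Fmod at 0.0444 and Omd at 0.0465 in limma, beside 2.98% of 13915 genes that rose and 4.36% that passed either way. The same genes without the block, of which 0.0216% passed, gave the 3 members adjusted p values of 0.155, 0.214 and 0.24. Among the alternatives run, the call of these 3 genes needed both the block and 1 probe per official symbol, and this pair of choices was made after seeing the data.

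Markers of other cell types were read beside the proteoglycans, and those of macrophages were higher with Xpo5 siRNA too. All 12 macrophage markers (among them Csf1r, Adgre1 and Lyz2) were well above background on every array. Their 19 kept probes were all higher with Xpo5 siRNA (51.8% of all kept probes), with a median difference of 0.72. So were the 17 of them above background on all 4 arrays (51.2% of all such probes). With the block and 1 probe per official symbol 4 of the 12 macrophage markers rose, beside 3 of the 10 proteoglycans and 2.98% of 13915 genes. They were Adgre1 and Aif1, by 1.02 ± 0.28 and 1.08 ± 0.24, and Laptm5 and Itgam, by 0.87 ± 0.15 and 0.64 ± 0.23 (SE without the block). With the block and 1 probe per official symbol the limma adjusted p was 0.0437 for the first 3 and 0.0494 for Itgam. The markers' summed level, in multiples of the array's 75th percentile, was 60.5 and 43.1 in control and 85.1 and 72.5 with Xpo5 siRNA. The brightest probe can dominate such a sum, so it does not measure the amount of a cell type. That of Lyz2 did so here, that of Kdr among endothelial and that of Krt18 among epithelial markers. The summed fibroblast markers were 2130 and 1940 in control and 2410 and 2290 with Xpo5 siRNA, with a median difference of 0.09. Of the endothelial markers, Kdr, Tek and Esam kept a probe and summed with the others to 0.304 and 0.279 in control and 0.627 and 0.52 with Xpo5 siRNA, while the defining markers Pecam1, Cdh5 and Tie1 had no probe that passed the filter. Epithelial markers had a median of -0.62 over 5 probes, without a kept probe of Cdh1 or Epcam. Krt5 differed by -0.92 and Krt8 by -0.62 at its brighter probe, but Krt18 by -0.01 and Krt14 by 0.19. The summed epithelial markers were 6.12 and 4.89 in control and 5.88 and 4.88 with Xpo5 siRNA. Markers of chondrocytes, osteoblasts, tenocytes and muscle had medians of -0.02, 0.12, 0.15 and 0.19. The part of these cell types in the proteoglycan differences was not tested.

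The remaining genes of the family and of its pathways were read from lists of related genes, of which 0 probes passed limma adjusted over all kept probes in any list. Among 8 further genes of the family, 6 had a kept probe, and 4 of their 9 probes were higher, with a median of -0.01. Epyc, the class III neighbour of Kera, read -3.29 and -3.53 in control and -2.58 and -2.91 with Xpo5 siRNA at its brighter probe, a difference of 0.67 ± 0.19 (SE). With the block and 1 probe per official symbol it rose (limma adjusted p = 0.0485). Optc, next to Prelp, differed by 0.47 ± 0.20 and Podnl1, the nearest relative of Podn, by 0.60 ± 0.17. Chad differed by -0.30 ± 0.21 and Tsku by -0.15 ± 0.23, while the 2 Chadl probes disagreed, at -0.01 ± 0.31 and -0.89 ± 0.21. Ecm2 and Nyx kept no probe. The family's further genes did not share one direction.

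The enzymes that build the sugar chains had medians closer to 0 than the proteoglycans. Of 33 probes for chondroitin and dermatan sulfate enzymes 24 were higher, with a median of 0.11. The xylosyltransferases that start the chain, Xylt1 and Xylt2, differed by 0.39 ± 0.23 and 0.02 ± 0.14, the xylose kinase Fam20b by 0.17 ± 0.20, and the chain polymerase Chsy1 by 0.08 ± 0.14. The epimerases Dse and Dsel, which make dermatan sulfate, differed by 0.22 ± 0.16 and -0.23 ± 0.25, but the other kept Dsel probes by 0.24 and 0.26. The dermatan sulfotransferase Chst14 differed by -0.28 ± 0.18 at its brightest probe. The chondroitin sulfotransferase Chst11 differed by 0.27 ± 0.17 at its brightest probe and by 0.33 and -0.13 at its others. Chsy3, a second polymerase, differed by 0.69 ± 0.17 and Ust, the uronyl 2-sulfotransferase, by -0.74 ± 0.16. With the block and 1 probe per official symbol Chsy3 rose and Ust fell, at limma adjusted p values of 0.0467 and 0.0454. For keratan sulfate 8 of 13 probes were higher, with a median of 0.05. Chst1, which sulfates the galactose of keratan sulfate, read 2.08 and 1.59 in control and 2.78 and 2.48 with Xpo5 siRNA, a difference of 0.80 ± 0.23, and it rose under the same alternative (limma adjusted p = 0.0454). Chst5 differed by 0.10 ± 0.38 and B4galt4 by 0.28 ± 0.20, and B3gnt7 kept no probe.

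**Figure D4:**
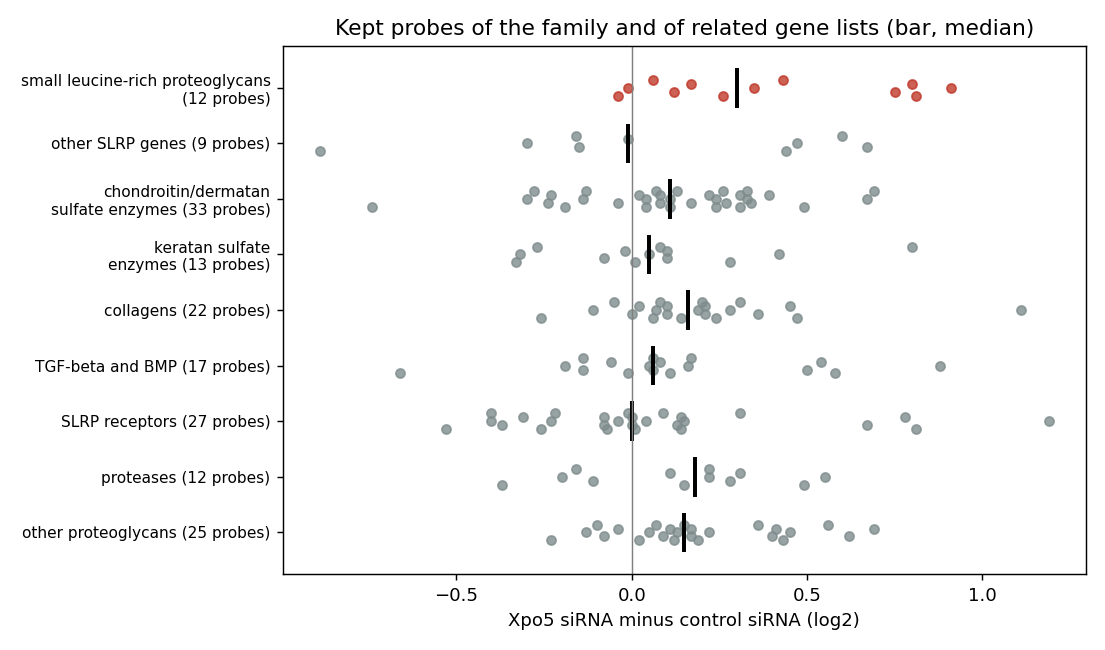
Difference between Xpo5 and control siRNA (horizontal axis, log2) of every kept probe of the 10 proteoglycan genes and of 8 lists of related genes (rows), with a black bar at each list's median. The proteoglycan median is 0.30, and those of the other lists lie between -0.01 and 0.18, with points spread to both sides of 0 in every list.

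The collagens that these proteins bind had a median difference of 0.16 over 22 probes, of which 18 were higher. Col1a1 and Col1a2, the chains of collagen I, differed by 0.10 ± 0.14 and 0.28 ± 0.16 at their brightest probes, and Col3a1 by -0.11 ± 0.20. Col5a1 differed by 0.07 ± 0.16, Col6a1 by 0.21 ± 0.17, Col12a1 by -0.05 ± 0.18 and Col14a1 by 0.08 ± 0.22. Of the proteases that process or cut the family, 8 of 12 probes were higher, with a median of 0.18. Bmp1, which removes the propeptide of biglycan, differed by 0.28 ± 0.15, and the matrix metalloproteinases Mmp2, Mmp3, Mmp13 and Mmp14 by 0.11 ± 0.16, -0.20 ± 0.16, -0.37 ± 0.19 and 0.22 ± 0.14. Adamts5, an aggrecanase, differed by 0.31 ± 0.17.

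Ligands and receptors of the TGF-beta and BMP pathways had a median of 0.06 over 17 probes, with 11 higher. The ligands Tgfb1, Tgfb2 and Tgfb3 differed by 0.05 ± 0.18, -0.06 ± 0.14 and 0.06 ± 0.14, each less than its error. The signalling receptors Tgfbr1 and Tgfbr2 differed by 0.50 ± 0.22 and 0.54 ± 0.17. Tgfbr3, the coreceptor betaglycan and itself a proteoglycan, had a difference of -0.66 ± 0.28 and fell with the block and 1 probe per official symbol (limma adjusted p = 0.048). Of the receptors reported to bind decorin, biglycan or their relatives, 13 of 27 probes were higher, with a median of 0.00. Met, Egfr, Igf1r and Lrp1 differed by -0.40 ± 0.18, 0.04 ± 0.16, 0.00 ± 0.17 and -0.01 ± 0.16. Tlr2 and Tlr4, the Toll-like receptors that biglycan engages, differed by 0.81 ± 0.26 and 0.67 ± 0.16, and Kdr, a VEGF receptor, by 1.19 ± 0.18. With the block and 1 probe per official symbol these genes rose, at limma adjusted p values of 0.0454, 0.0496 and 0.0437. Toll-like receptors are typical of macrophages, whose markers were higher too, and Kdr is itself one of the endothelial markers. The part of such cells in the receptor differences was not tested.

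Proteoglycans outside the family had a median of 0.15 over 25 probes, with 20 higher. Versican (Vcan) differed by 0.19 ± 0.15 at its brightest probe and by 0.40 to 0.62 at its other kept probes. Cspg4 differed by 0.36 ± 0.15 at its brightest probe and by 0.13 and 0.05 at its others. Perlecan (Hspg2) differed by -0.13 ± 0.17, aggrecan (Acan) by 0.56 ± 0.32, and the cell surface proteoglycans Sdc1 and Gpc1 by -0.04 ± 0.14 and 0.07 ± 0.17. Srgn, the proteoglycan of secretory granules in blood cells, differed by 0.69 ± 0.14, and it rose with the block and 1 probe per official symbol (limma adjusted p = 0.0467). In all, 9 of 91 tested genes of the 8 related lists (9.89%) passed under that alternative, 7 of them higher, beside 4.36% of all genes, and apart from the macrophage markers given above.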

How the data were processed

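Each of the 4 RNA samples was run on a 1-colour Agilent array. Per the file headers, the processed signal in the deposited scanner files is a background-subtracted intensity from Feature Extraction 10.5.1.1. Values in the deposited table are log2 and were within 0.001 of the log2 processed signal shifted to a median of 5.33 on each array for 99.7% to 99.8% of probes. Outlier spots (77 to 134 an array) were left out, spots of a probe averaged, and the array's 75th percentile subtracted after log2. Probes passing the scanner's above-background test throughout 1 or both groups were tested with limma 3.58.1 (R 4.3.3; lmFit, eBayes, two-sided, Benjamini-Hochberg at 0.05 over all 25626 kept probes; no block), and 95% intervals use the moderated error. Each SE given comes from this fit without a block. An exact permutation test of 2 against 2 cannot go below 0.333. Deviations of same-numbered samples from their group means correlated at 0.515 over probes. Alternatives, 19 in all, covered background correction, scaling, filters, choice of probe, blocks, each array left out and the deposited table. Members, lists and named genes were chosen with earlier results of these data known; all members, genes fixed by name and any gene of a related list or marker list passing a fit are named, at their brightest probe. Official symbols came from a RefSeq table through accession (26690 probes), symbol (5189) or synonym (952). The number of arrays limits the precision.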

Additional observations from a re-analysis of the deposited data

Results flagged for a closer look

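A second decorin probe, A_52_P252726, lay outside the tested probes because it was well above background on only 1 of 4 arrays. That array was Xpo5 siRNA replicate 2, where its processed signal was 14.2, against 3.25 on the other Xpo5 siRNA array and 2.02 and 5.95 on the control arrays. It was singled out as signal above the control level in data that the comparison did not use. The bright decorin probe read 5.69 on that array on the log2 scale, equal to control replicate 1.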

How the results depend on the processing

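The probes of Kera, Podn and Omd and the second Prelp probe lie closest to background, which limits what their signal can show. Members passed only with the replicate block and 1 probe per official symbol together. Blocks, an intensity trend, filters and the choice of 1 probe cannot change a probe's difference in this design. The bright Prelp probe, Fmod and Omd kept their sign in every alternative that could change it. Leaving aside normexp without the repair, they ranged from 0.78 to 1.07, 0.61 to 1.01 and 0.36 to 0.99, and with it from 0.41 to 1.07, 0.23 to 1.01 and 0.36 to 1.28.

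The number of kept probes or genes passing was 1 with repaired normexp, with probes averaged by gene or with an intensity trend, 2 with 1 probe per gene, 3 with 1 probe per official symbol, 10 with median scaling or the deposited table, 4 with the replicate block, 5 with the replicate block and 1 probe per gene, and 607 with the replicate block and 1 probe per official symbol. Under the last, 3 members, 9 genes of the related lists and 4 macrophage markers passed, and the replicate block changed no other member's call. The combinations with 1 probe per official symbol, and of the block with 1 probe per gene, were chosen after seeing the data. The step from 5 to 607 came with fewer genes tested, 13915 against 16917, and the cause was not tested further. With each array left out in turn 0 probes passed, the members' median ran from 0.21 to 0.56 and 9 to 11 of the 12 probes were higher.

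Of 216 member values under alternatives 196 kept their direction and side of the threshold, 3 passed anew and 17 turned sign, none of them among called values. Many of the 216 could not turn sign, since blocks, the intensity trend, filters and the choice of 1 probe leave a difference unchanged. With unrepaired normexp Dcn read -0.68, Bgn (A_52_P162486) -1.19, Lum -0.70, Ogn -1.27 and Kera 1.43, and with the repair Kera read 0.07. Ogn read -0.04 with median scaling and with the deposited table. With single arrays left out, Bgn ran from -0.28 to 0.80, Aspn from -0.25 to 0.17, Kera from -0.85 to 0.84, Ogn from -0.12 to 0.24 and Podn from -0.02 to 0.35. The cause of these turns was not tested.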
